A study of Mus musculus with 5 samples.

Results

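The genes described here are 10 markers of resident-like aortic macrophages, namely Mrc1, Stab1, Cd163, Timd4, Folr2, Lyve1, Pf4, Selenop, F13a1 and Cbr2. They were chosen by symbol, as genes that mark the tissue-resident macrophages of arteries and other organs, and make up 10 of the 55487 genes in the count table. RNAseq libraries were made from macrophages of the aortas of male ApoeKO mice, which lack apolipoprotein E and develop atherosclerotic plaques, after 8 weeks of chow and 10 weeks of Western diet (age 18 weeks). The 2 libraries labelled WT, WT1 and WT2, came from Zeb1WT/ApoeKO mice, which carry the floxed Zeb1 allele (Zeb1 fl/fl) without its deletion. The 3 libraries labelled KO, KO1, KO2 and KO3, came from Zeb1∆M/ApoeKO mice, in which Cre driven by the Lyz2 (LysM) locus removes the floxed exon 6 of the transcription factor gene Zeb1 in myeloid cells. Both genotypes thus lacked Apoe and ate the same diet. By the labels and the study's methods of cell isolation, whole aortas were freed of the surrounding fat and digested with enzymes. The study's results and its RNAseq methods name the aortic sinus as the source instead. By the labels, live CD45+ F4/80+ cells were sorted, with CD11b as a further marker in the study's methods. Cells from 3 mice were pooled per genotype and condition. The study describes its replicates in general as biologically independent, but the labels do not say whether the libraries of a genotype came from separate mixtures. The p-values thus measure only the spread between these libraries, which may be technical.

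Resident macrophages of the artery wall are seeded largely before birth and renew themselves in place, mostly in the adventitia, whereas many plaque macrophages arise from blood monocytes recruited during disease. In mouse arteries the resident cells are known for the hyaluronan receptor LYVE1, the folate receptor FOLR2, the mannose receptor and a set of scavenger receptors with which they clear debris, glycoproteins and dying cells. They also secrete factors for trace element transport, coagulation and chemotaxis.

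Promoter sequences are shown for 5 of the members, because these are the genes whose counts set the contrasts described here. Mrc1 and F13a1 had at least 100 counts in the same 4 libraries, Pf4 and Stab1 in all 5, and Folr2 in 3. Stab1 had only 105 in WT1. Each run is the RefSeq promoter of GRCm38.p6, 5′ to 3′ in the direction of the gene, from 250 bases before to 50 after the gene's start. Capitals mark matches on either strand to GAGGAA, the core letters bound by the macrophage factor PU.1, and to TGCTGA, the core letters bound by MAF factors.
Mrc1: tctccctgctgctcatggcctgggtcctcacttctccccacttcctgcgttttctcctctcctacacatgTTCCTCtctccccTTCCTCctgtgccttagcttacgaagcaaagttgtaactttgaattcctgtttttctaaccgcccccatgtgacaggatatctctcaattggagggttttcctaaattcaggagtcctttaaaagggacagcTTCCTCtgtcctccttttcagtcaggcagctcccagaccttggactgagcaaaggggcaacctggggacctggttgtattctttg
F13a1: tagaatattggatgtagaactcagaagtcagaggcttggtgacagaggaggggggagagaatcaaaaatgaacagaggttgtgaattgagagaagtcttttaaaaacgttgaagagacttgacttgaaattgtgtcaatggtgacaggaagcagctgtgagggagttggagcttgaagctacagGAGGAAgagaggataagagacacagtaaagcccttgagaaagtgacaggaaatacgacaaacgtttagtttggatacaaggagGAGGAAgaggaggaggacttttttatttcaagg
Pf4: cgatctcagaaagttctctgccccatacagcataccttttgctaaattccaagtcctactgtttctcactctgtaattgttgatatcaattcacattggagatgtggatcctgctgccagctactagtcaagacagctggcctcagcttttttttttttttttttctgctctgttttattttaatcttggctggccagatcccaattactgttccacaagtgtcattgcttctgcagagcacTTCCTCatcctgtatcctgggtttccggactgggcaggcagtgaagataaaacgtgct
Stab1: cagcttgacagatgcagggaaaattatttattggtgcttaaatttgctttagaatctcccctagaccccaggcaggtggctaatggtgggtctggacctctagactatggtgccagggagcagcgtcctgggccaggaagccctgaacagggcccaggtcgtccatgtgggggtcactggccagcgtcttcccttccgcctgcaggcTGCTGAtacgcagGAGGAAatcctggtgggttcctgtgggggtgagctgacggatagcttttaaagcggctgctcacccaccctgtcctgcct
Folr2: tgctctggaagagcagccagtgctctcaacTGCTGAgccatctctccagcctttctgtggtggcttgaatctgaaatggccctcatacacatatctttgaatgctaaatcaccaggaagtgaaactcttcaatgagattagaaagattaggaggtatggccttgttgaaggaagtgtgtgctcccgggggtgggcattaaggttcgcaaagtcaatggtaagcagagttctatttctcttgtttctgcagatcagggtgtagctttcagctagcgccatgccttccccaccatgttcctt
The windows lie at chr2:14229164-14229463 on the plus strand for Mrc1, chr13:37050195-37050494 on the minus strand for F13a1, chr5:90772185-90772484 on the plus strand for Pf4, chr14:31168592-31168891 on the minus strand for Stab1 and chr7:101857141-101857440 on the minus strand for Folr2. Mrc1 held 3 PU.1 matches, F13a1 held 2, Pf4 held 1, Stab1 held 1 PU.1 and 1 MAF match and Folr2 held 1 MAF match. Of the 9 members found in the promoter table, 6 held GAGGAA and 4 held TGCTGA. Over all 32851 promoters of the same length, 28.3% held GAGGAA and 19.5% held TGCTGA. A match of letters is a description of the window and says nothing of binding.

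The libraries held between 20118545 and 50649912 counts. They differed widely within each genotype: WT1 and KO1 held only 1714 and 870 genes with at least 100 counts, against 3173 to 4421 in WT2, KO2 and KO3, and the edgeR common dispersion over the 7905 genes tested was 6.44. Levels are given as TMM CPM, that is, CPM (counts relative to the library's total) after edgeR's TMM scaling, under which 3 counts, the limit that a count of 0 allows, were worth 0.0597 to 0.248 TMM CPM. These limits cover counting error only, since PCR reads without molecular identifiers are not independent molecules. KO1 stood apart from the rest. It held 16423 genes with more than 3 counts, against 5009 to 6931 in the other libraries, though only 870 reached 100. Low counts were thus widespread in KO1, and their source was not tested. Its TMM factor was 0.515 against 1.03 to 1.42 in the other libraries, it held 60292 counts of the haemoglobin gene Hba-a1 against 0 in each of the others, and it held 10 counts of Cd68, 25 of Csf1r and 33 of Cd14, all markers of the macrophage lineage. WT1 also had no count of Cd68. Markers of other cells were found in other libraries too: 7 T cell genes summed to 5321 TMM CPM in WT2, 1430 in KO3 and 361 in KO2 against at most 7.89 in WT1 and KO1, and 6 neutrophil genes summed to 2617 TMM CPM in WT1 and 2735 in KO1 against 883 in WT2, 1256 in KO2 and 139 in KO3. In KO1 that sum was nearly all S100a8, with 33132 counts, while S100a9 had 0 and Csf3r 15. The fibroblast gene Dcn had 19005 counts in KO2 and at most 1 elsewhere, but the other 5 fibroblast genes had at most 5 in KO2. The part of such cells in the members' counts was not tested. Lyz2, the locus that drives Cre and a marker of myeloid cells, had 161607 to 869804 counts in all 5 libraries, and Adgre1, which encodes F4/80, had 1068 to 38190. Itgam, which encodes CD11b, had 441 counts in WT1, 3074 in WT2, 0 in KO1, 33 in KO2 and 1988 in KO3. The macrophage gene Fcgr1 had 0 in WT1, 3084 in WT2, 2 in KO1, 178 in KO2 and 0 in KO3. Mertk had 22 in KO1 and 0 elsewhere. Zeb1 was counted at 0 in all libraries but KO1, which had 22, among the widespread low counts of that library. The targeted gene thus did not check the labels.

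Across the 10 members, libraries of 1 genotype differed widely from each other. Counts of 100 or more were found in 34 of the 50 pairs of a member and a library, and 11 pairs had 3 counts or fewer, so that most members were either abundant or nearly absent in a given library. WT1 had 5 of the 10 members at 100 counts or more, WT2 had 8, KO1 had 4, KO2 had 8 and KO3 had 9. No member was called different between the genotypes by edgeR's quasi-likelihood test, as set out after the values of each gene.

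**Figure D1:**
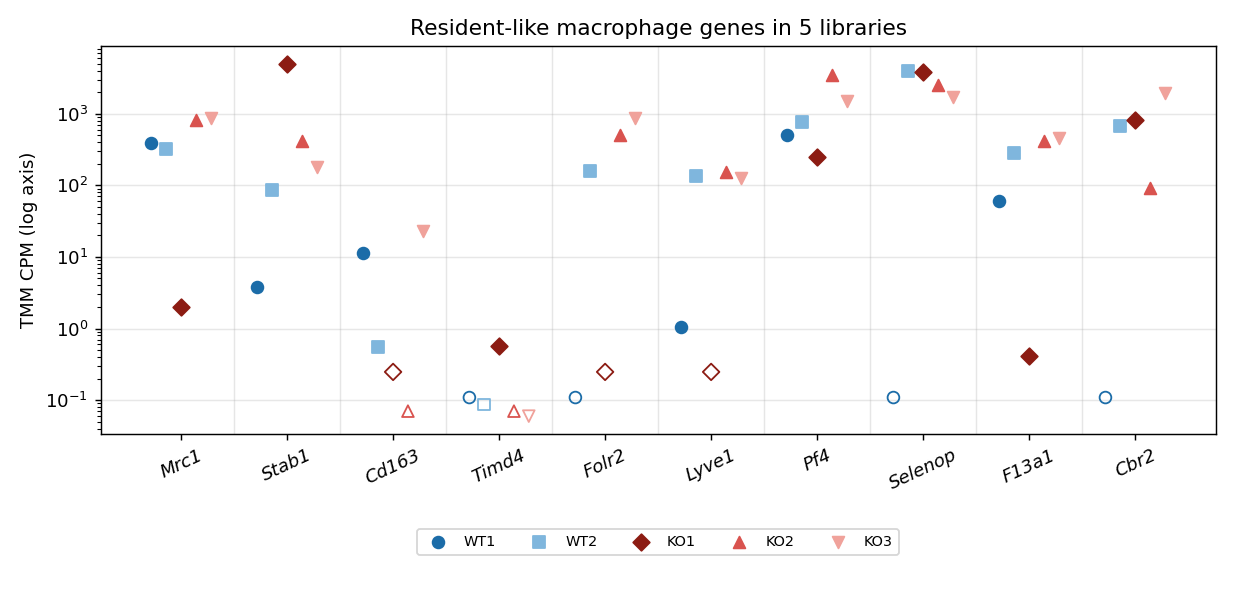
TMM CPM (log axis) of the 10 resident-like genes, with 1 symbol for each library and genes ordered by role from uptake receptors on the left to secreted proteins and enzymes on the right. Open symbols stand for 3 counts or fewer and are drawn at the level of 3 counts in that library. Stab1 is the member whose KO libraries all lie above its WT libraries, and KO1 lies far below the other 4 for Mrc1 and F13a1.

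Among the uptake receptors, Mrc1 encodes the mannose receptor CD206, which binds glycoproteins with mannose ends (ENSMUSG00000026712.3, chr2:14229392-14332057, plus strand, 30 exons in its longest transcript). Mrc1 had 10875 counts in WT1, 11226 in WT2, 24 in KO1, 35262 in KO2 and 44013 in KO3. These were 394, 326, 1.98, 824 and 876 TMM CPM. WT1 and WT2 lay close together, KO2 and KO3 lay above both, and KO1 lay far below, so the genotypes overlapped. The mean was 360 ± 48.1 TMM CPM in WT (SD, n = 2) and 568 ± 490 in KO (SD, n = 3; two-sided exact permutation test, p = 0.6), a log2 fold change of 0.66 (SE 3.35), between 0.19 without KO3 and 1.01 without KO1. In bulk libraries such as these, fewer cells of a type and less RNA per cell cannot be told apart.

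Stab1 encodes stabilin-1, a large scavenger receptor that takes up modified lipoproteins and matrix fragments (ENSMUSG00000042286.13, chr14:31139013-31168641, minus strand, 69 exons). It had 105 counts in WT1, 2938 in WT2, 60772 in KO1, 17741 in KO2 and 9080 in KO3. On the TMM CPM scale the levels were 3.80 and 85.3 in WT and 5015, 415 and 181 in KO. All 3 KO libraries lay above both WT libraries, with WT2 and KO3 as the nearest pair. Mean levels were 44.5 ± 57.6 TMM CPM in WT (SD, n = 2) and 1870 ± 2726 in KO (SD, n = 3; two-sided exact permutation test, p = 0.5). With 2 against 3 libraries this test cannot go below 0.1. The log2 fold change was 5.39 (SE 3.52) with an unadjusted p of 0.126 and a Benjamini-Hochberg adjusted p of 1 by the quasi-likelihood test of edgeR. Leaving out KO1, the library with the most Stab1 counts, gave 2.69. KO1 was also the library with the red cell gene Hba-a1 at 60292 counts, and the part of other cells in its Stab1 count was not tested. Stab2, its closest relative, was at 0 in all 5 libraries.

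Cd163 encodes the receptor that clears complexes of haemoglobin and haptoglobin (ENSMUSG00000008845.9, chr6:124304656-124330527, plus strand). It was among the weakest members, with 318 counts in WT1, 19 in WT2, 0 in KO1, 0 in KO2 and 1147 in KO3. WT1 and KO3 alone passed 100 counts, and each genotype thus held a library with the gene and a library nearly or wholly without it. The mean was 6.03 ± 7.75 TMM CPM in WT (SD, n = 2) and 7.61 ± 13.2 in KO (SD, n = 3; two-sided exact permutation test, p = 1). Its log2 fold change of 0.34 (SE 4.22) went to -10.45 without KO3 and to 3.91 without WT1.

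Timd4 encodes TIM-4, a receptor for phosphatidylserine on dying cells (ENSMUSG00000055546.6, chr11:46810800-46844332, plus strand). It had 7 counts in KO1, where low counts were widespread, and 0 in WT1, WT2, KO2 and KO3. It did not pass the filter on low counts and was not tested in edgeR. At these depths a count of 0 allows up to 0.0597 to 0.109 TMM CPM in the 4 libraries without a count.

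Folr2 encodes folate receptor beta, which binds and takes up folate (ENSMUSG00000032725.10, chr7:101839988-101857194, minus strand). Its counts were 0 in WT1, 5508 in WT2, 0 in KO1, 21279 in KO2 and 43537 in KO3. The levels of the 3 libraries with a count were 160 TMM CPM in WT2, 498 in KO2 and 867 in KO3, a 5.42-fold range. Both libraries numbered 1 lacked the gene, and KO2 and KO3 lay above WT2. WT averaged 79.9 ± 113 TMM CPM (SD, n = 2) and KO 455 ± 435 (SD, n = 3; two-sided exact permutation test, p = 0.4), with a log2 fold change of 2.51 (SE 4.06). Without WT2 the fitted value became 16.96, which rests on the small prior count given to a WT group at 0 and is not a bound. The gene shares 975 exon bases with Gm10602, an antisense gene with 14 to 318 counts per library, and because the library kit does not mark strand, reads of the shared part cannot be told apart. Folr1, the related receptor gene, was at 0 in all libraries.

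Lyve1 encodes a hyaluronan receptor of resident arterial macrophages that is also found on lymphatic endothelium (ENSMUSG00000030787.4, chr7:110850607-110863239, minus strand). It had 29 counts in WT1, 4679 in WT2, 0 in KO1, 6632 in KO2 and 6425 in KO3. Where it was abundant its level hardly varied, at 136 TMM CPM in WT2, 155 in KO2 and 128 in KO3. WT1 had 1.05 TMM CPM. Each genotype held a library with under 100 counts of the gene, and means were 68.4 ± 95.3 TMM CPM in WT (SD, n = 2) and 94.3 ± 82.8 in KO (SD, n = 3; two-sided exact permutation test, p = 0.8). The log2 fold change was 0.46 (SE 4.80), -0.41 without WT1 and 6.50 without WT2. Of the lymphatic endothelial markers, Prox1 had at most 2 counts and Flt4, Mmrn1 and Reln at most 21, while Pdpn had 1285 counts in WT1, 4115 in WT2, 3 in KO1 and 0 in KO2 and KO3.

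Among the secreted proteins, Pf4 encodes platelet factor 4, a chemokine of platelets that resident macrophages also make (ENSMUSG00000029373.7, chr5:90772435-90773383, plus strand). Pf4 had 13873 counts in WT1, 26751 in WT2, 2997 in KO1, 147665 in KO2 and 76758 in KO3. In TMM CPM these were 502, 776, 247, 3453 and 1528. KO2 and KO3 had the highest levels and KO1 the lowest, so the WT libraries lay inside the KO range. The mean was 639 ± 194 TMM CPM in WT (SD, n = 2) and 1743 ± 1613 in KO (SD, n = 3; two-sided exact permutation test, p = 0.6), and the log2 fold change was 1.45 (SE 2.77), between 0.52 and 1.79 with any 1 library left out. Of 8 platelet and megakaryocyte markers only Ppbp, a neighbouring chemokine gene, passed 100 counts, with 2814 in WT2 and 2326 in KO3, and it had 0 in KO2, where Pf4 was highest.

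Selenop encodes selenoprotein P, the plasma carrier of selenium (ENSMUSG00000064373.12, chr15:3268547-3280508, plus strand). It had 0 counts in WT1, 136854 in WT2, 46485 in KO1, 108797 in KO2 and 85399 in KO3. The levels of the 4 libraries with the gene, 3971, 3836, 2544 and 1700 TMM CPM, lay within 2.34-fold of each other. Selenop was thus counted at a like level in WT2 and the 3 KO libraries, and not at all in WT1. Means were 1986 ± 2808 TMM CPM in WT (SD, n = 2) and 2693 ± 1076 in KO (SD, n = 3; two-sided exact permutation test, p = 0.8). The log2 fold change of 0.44 (SE 2.28) became -0.63 without WT1 and 19.25 without WT2, the latter again set by a WT group at 0. The end of Selenop shares 439 exon bases with Ccdc152 on the opposite strand, which had 7820 counts in WT1, 85 in WT2, 8341 in KO1, 914 in KO2 and 130 in KO3. Reads of the shared part cannot be told apart without strand, so the sum of both genes is also given, at 283 TMM CPM in WT1, 3974 in WT2, 4524 in KO1, 2565 in KO2 and 1702 in KO3. WT1 remained the lowest on the summed level.

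F13a1 encodes the catalytic A subunit of coagulation factor XIII, a transglutaminase that cross-links fibrin (ENSMUSG00000039109.16, chr13:36867178-37050244, minus strand). It had 1681 counts in WT1, 9710 in WT2, 5 in KO1, 17623 in KO2 and 22792 in KO3. Levels were 60.9 and 282 TMM CPM in WT and 0.413, 412 and 454 in KO, with KO2 and KO3 above both WT libraries and KO1 below both, as for Mrc1. WT averaged 171 ± 156 TMM CPM (SD, n = 2) and KO 289 ± 251 (SD, n = 3; two-sided exact permutation test, p = 0.6), with a log2 fold change of 0.75 (SE 3.94), 0.15 without WT1 and 2.27 without WT2.

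The intracellular enzyme of the group is Cbr2, a carbonyl reductase that marks resident macrophages of several mouse tissues (ENSMUSG00000025150.10, chr11:120729489-120732114, minus strand). Cbr2 had 0 counts in WT1, 23097 in WT2, 9889 in KO1, 3881 in KO2 and 96831 in KO3. The 4 libraries with counts had 670, 816, 90.7 and 1927 TMM CPM, a 21.2-fold range in which KO2 and KO3 were the extremes. The mean was 335 ± 474 TMM CPM in WT (SD, n = 2) and 945 ± 925 in KO (SD, n = 3; two-sided exact permutation test, p = 0.4). The log2 fold change was 1.50 (SE 3.21), 0.51 without WT1 and 0.64 without KO3, and 17.86 without WT2, where the WT group was at 0. Its relative Cbr1 was counted in WT2 at 4300 and in KO3 at 4914 and at 7 or fewer elsewhere.

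The genotype comparison asked whether the myeloid deletion of Zeb1 changed these genes. By the edgeR quasi-likelihood test, Benjamini-Hochberg adjusted over all genes tested, 0 of the 9 members that passed the filter on low counts were called at an adjusted p under 0.05, where 0% of the 7905 genes tested were called. None of the 9 had an unadjusted p under 0.05, which 86 of the genes tested had. All 9 log2 fold changes were above 0, with a median of 0.75, while the median of all genes tested was 0.78 and 4811 of them were above 0. How the 2 medians compared depended on the libraries: without KO1 the members had 1.23 and all genes tested 0.14, without both libraries numbered 1 they had 1.54 and 0.68, and without WT1 they had 0.92 and 6.42. Among genes with at least 10 counts in every library, the 3 members left had 1.25 and all genes 0.12. Under RLE scaling the median of all genes moved to 1.24 and that of the members to 1.12, and 7 of the 9 were then above 0, Mrc1 and Cd163 falling below. DESeq2, the tool of the study's methods, called 12.1% of 6519 genes, 790 in number, but 0 of the 7 members that it gave an adjusted p, which ran from 0.727 to 0.993. It gave none to Cd163, Timd4 and Stab1.

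**Figure D2:**
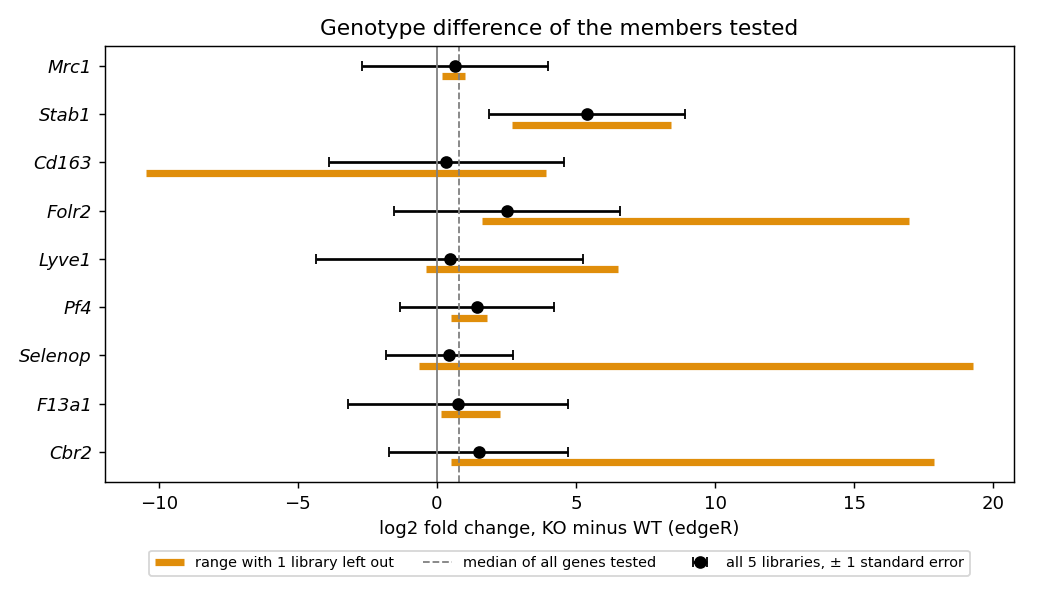
The edgeR log2 fold change, KO minus WT, of the 9 members tested (points, with bars of 1 standard error), the range of the fitted value with any 1 library left out (orange), and the median of all genes tested at 0.78 (dashed). The bar of Stab1 alone clears 0, and the ranges of Folr2, Cbr2 and Selenop reach 16.96 to 19.25 where leaving out WT2 left a WT group at 0.

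The TMM CPM of the genotypes did not overlap for 1 member of 10, Stab1, while 11.2% of all genes tested did not overlap, 528 of them higher and 359 lower in KO. Leaving out KO1 raised the members without overlap to 5, all higher in KO, namely Mrc1, Folr2, F13a1, Pf4 and Stab1, while the share of all genes tested rose to 24.2%. Leaving out WT1 instead gave 2, with Stab1 higher and Selenop lower in KO, against 39.4% of all genes tested. The count of members thus depended on KO1 more than on any other library.

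Summed over the 10 members, the level was 973 TMM CPM in WT1, 6407 in WT2, 9917 in KO1, 8391 in KO2 and 7682 in KO3. WT1 was the lowest, and the other 4 lay within a narrower range. The mean was 3690 ± 3842 TMM CPM in WT (SD, n = 2) and 8664 ± 1142 in KO (SD, n = 3), and no test was made of the sum. By the library's total count over all genes, without TMM scaling, KO1 had 4931 CPM, below WT2 with 6382. A few genes made up each sum, and not the same ones. Pf4 gave 51.6% of it in WT1 and 41.1% in KO2, Selenop 62.0% in WT2, Stab1 50.6% in KO1 and Cbr2 25.1% in KO3. With the leading member of each library taken out, the TMM CPM sums were 471 in WT1, 2435 in WT2 and 4902 to 5755 in the KO libraries. These sums were not made by the total count, so the gap is given under TMM scaling only, where KO1 had a factor of 0.515.

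Levels between genes were compared per kb of exon, since longer transcripts yield more reads. By the median of the 5 libraries, Pf4 stood first at 1077 TMM CPM per kb and Selenop next at 895, followed by Cbr2 at 505 and Folr2 at 103. Mrc1 at 61.8, Lyve1 at 43.8, F13a1 at 41.8 and Stab1 at 17.6 formed a middle range, and Cd163 at 0.101 and Timd4 at 0 were last. Most neighbours in this order did not differ beyond their spread. The upper gene was higher in 3 of 5 libraries for the first 4 pairs, in 5 of 5 for Mrc1 over Lyve1 and in 1 of 5 for Lyve1 over F13a1. It was higher in 4 of 5 for F13a1 over Stab1 and Stab1 over Cd163, and in 3 of 5 for Cd163 over Timd4. Per kb of the longest transcript, F13a1 had a median of 71.3 and Lyve1 of 44.2, which turned their order. Per kb Pf4 led in WT1, KO2 and KO3, and Selenop led in WT2 and KO1.

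**Figure D3:**
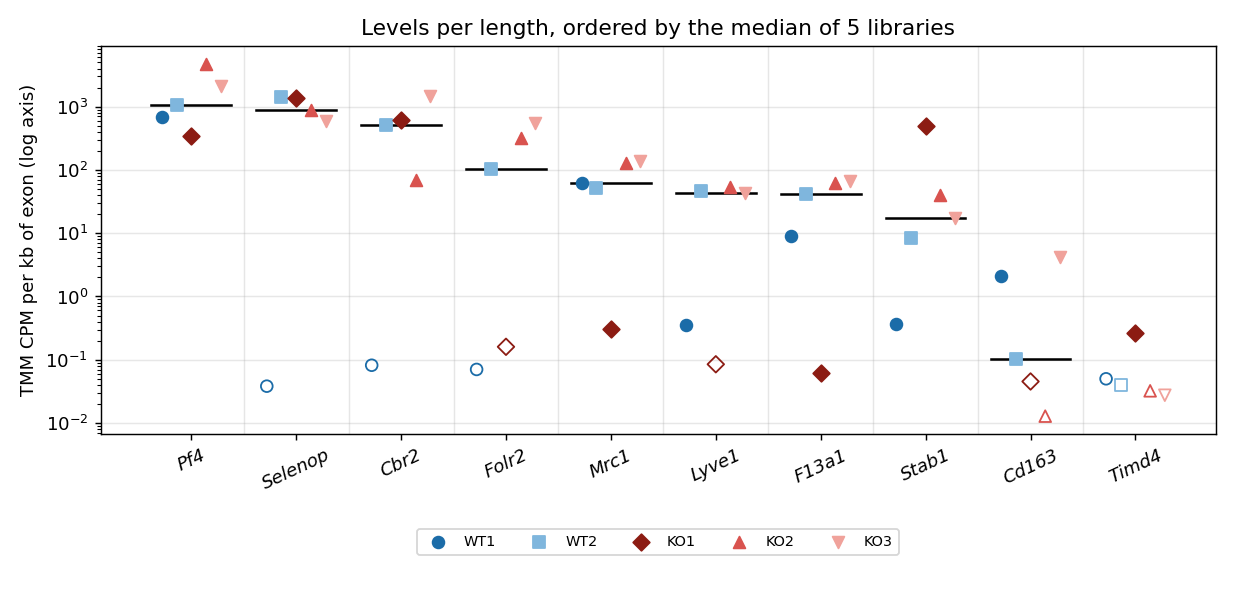
TMM CPM per kb of exon (log axis) of each member in the 5 libraries, ordered by the median, which the horizontal lines mark. Open symbols are 3 counts or fewer, drawn at the level of 3 counts. Pf4 is the member highest by median, at 1077, and its libraries span 343 to 4789.

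Genes were also grouped by the libraries in which they had at least 100 counts. Pf4 and Stab1 reached this in all 5 libraries, as 3.78% of all genes tested did, Stab1 with only 105 counts in WT1. Mrc1 and F13a1 shared WT1, WT2, KO2 and KO3, lacking only KO1, a pattern of 6.05% of the genes tested. Cbr2 and Selenop shared WT2, KO1, KO2 and KO3, lacking only WT1, a pattern of 1.06%. Lyve1 and Folr2 shared WT2, KO2 and KO3, lacking both libraries numbered 1, a pattern of 8.40%. Every pattern of the members but that of Timd4 held libraries of both genotypes.

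Among the 4570 genes tested whose mean count lay in the range of the members, the share with at least 100 counts was 30.5% in WT1, 72.2% in WT2, 13.1% in KO1, 55.6% in KO2 and 69.7% in KO3. The members, at 50, 80, 40, 80 and 90%, likewise had WT1 and KO1 as the lowest libraries. Of 13 inflammatory-like genes, such as Il1b and Tnf, 12 had at least 100 counts in WT1, 10 in WT2, 4 in KO1, 9 in KO2 and 10 in KO3. Of 13 foam-like genes, such as Trem2 and Spp1, 7, 10, 3, 6 and 10 did in the same order. The differences between lists were not tested.

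**Figure D4:**
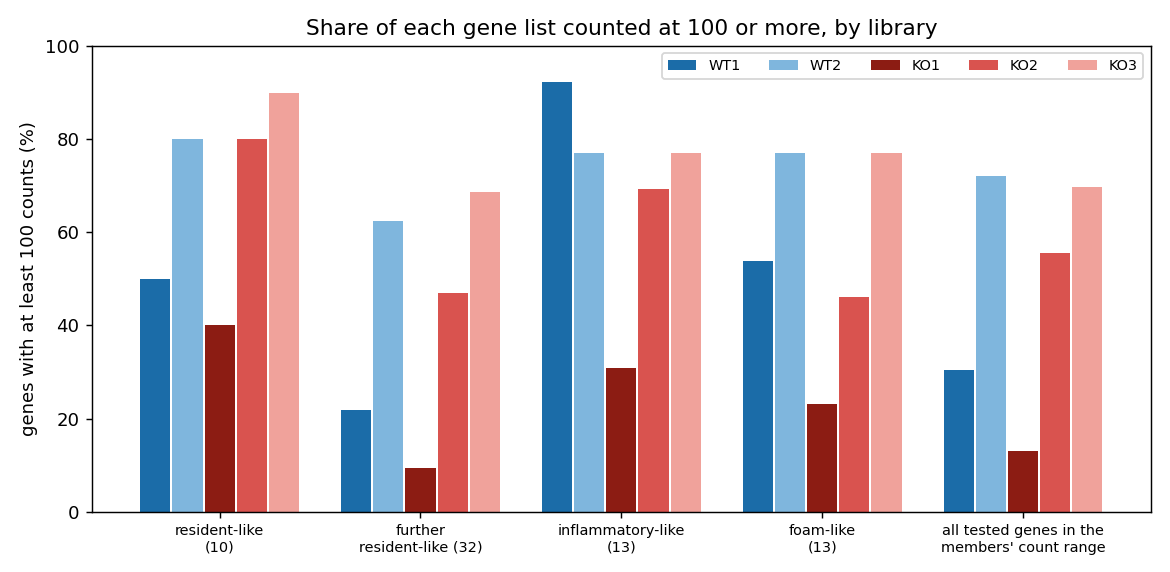
Percent of each gene list with at least 100 counts in WT1, WT2, KO1, KO2 and KO3 (bars from 0), for the 10 members, 32 further resident-like genes, 13 inflammatory-like genes, 13 foam-like genes and the genes tested in the members' count range. KO1 is the lowest library for every list, and WT1 falls below WT2 for all but the inflammatory-like genes.

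Other genes known from resident-like macrophages were read from a list of 32. Of these, 14 had at least 100 counts in 3 or more libraries, 12 in 1 or 2 libraries, and 6 in none. In edgeR 22 were tested, 13 with a log2 fold change above 0 and 9 below, with a median of 0.14 against 0.78 over all genes tested, and 0 were called by the quasi-likelihood test with 0 at an unadjusted p under 0.05. DESeq2 called 2 of the 16 that it gave an adjusted p (12.5%), a share near the 12.1% of all genes, and each rested on 1 library: Cd209d, a lectin gene with 1015 counts in KO1 and 0 elsewhere, and Clec10a, another lectin gene, with 1612 in WT2 and 0 elsewhere. Without KO1 it called 4 of 25, while it called 30.0% of 7757 genes in all.

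The transcription factor gene Maf, a regulator of this macrophage state, had 19 counts in WT1, 4333 in WT2, 94 in KO1, 5836 in KO2 and 6264 in KO3. Its libraries with at least 100 counts were those of Lyve1 and Folr2, as were those of the growth factor gene Igf1, with 1, 9609, 10, 8972 and 12417 counts in the same order. Ccl24, an eosinophil chemokine, Cd36, a receptor for oxidised lipoproteins, Txnip and Pmp22 fell in that group too. The chemokine gene Ccl8, the lectin gene Mgl2 and the leukotriene C4 synthase gene Ltc4s shared the libraries of Mrc1 and F13a1. So did the endocytic adaptor gene Dab2, which had 2907 counts in WT1, 16617 in WT2, 0 in KO1, 10773 in KO2 and 27958 in KO3. Fcgrt, the neonatal Fc receptor gene, reached 100 counts in all 5 libraries, with 3566 in WT2 and 62358 in KO1 as its extremes. Wwp1, a ubiquitin ligase gene, shared the libraries of Cbr2 and Selenop. The genotypes did not overlap for 2 of the 32 genes, against 11.2% of all genes tested. C4b, a complement gene, was lower in KO, with 9975 and 10384 counts in WT and 2, 0 and 632 in KO, a log2 fold change of -6.28 with an unadjusted p of 0.211 in edgeR's quasi-likelihood test. Colec12, a scavenger lectin gene, had 1 and 0 counts in WT and 45, 2 and 121 in KO. Its lack of overlap rests on 2 counts in KO2 against 1 in WT1, both within the 3 that a count of 0 allows. Its log2 fold change was 6.58, with an unadjusted p of 0.216 in the same test.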

How the data were processed

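RNAseq was done on sorted aortic macrophages in 5 libraries, 2 WT and 3 KO, grouped by the labels. SMART-Seq v4 cDNA was read paired end (75 bases). The authors mapped to GRCm38 and deposited 1 table of expected counts per gene, here whole numbers (STAR 2.5.3a and RSEM 1.3.0 in the submitters' processing notes, GENCODE mouse 25 in the study's methods). Total counts ran from 20118545 to 50649912. Exon lengths and positions came from GENCODE mouse 21 (GRCm38), in which all 10 members had the same identifier version.

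The genotype difference was fitted over the whole table with edgeR 4.0.16 (R 4.3.3), using TMM scaling, filterByExpr with a minimum count of 10, which kept 7905 genes, and the quasi-likelihood test with Benjamini-Hochberg adjustment over all of them. A standard error is the log2 fold change divided by the square root of F. The script was tested on simulated data, where recovery of set changes was required only at a dispersion far below that of these data. That test is no measure of power here. Each member's TMM CPM was also compared by an exact permutation test, two-sided, over the 10 ways of placing the libraries in groups of 2 and 3 (smallest p 0.1), without adjustment over the 10 tests. Alternatives were DESeq2 1.42.0, RLE scaling, other filters, an adjusted p under 0.1, a replicate block and libraries left out. All members were named, and of 32 further genes those with at least 100 counts in 3 or more libraries, of which 1 is not reported here. Cd209d, Clec10a and Colec12 were named after their values were seen. The members and lists were chosen with earlier results of these data known.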

Additional observations from a re-analysis of the deposited data

How the results depend on the processing

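No member was called under any alternative run. Over all genes tested, 0 were called by edgeR, 790 by DESeq2, and, with alternatives chosen after seeing the data, 2 by edgeR without both replicate 1 libraries and 2328 by DESeq2 without KO1. Of the further resident-like genes DESeq2 called 2 of 16 with an adjusted p, or 4 of 25 without KO1, against 12.1% and 30.0% of all genes. Members without overlap between genotypes numbered 1 of 10 with all libraries, 2 to 5 with 1 library left out, and 6 without both replicate 1 libraries, against 11.2%, 20.5 to 39.4% and 53.4% of all genes tested. The summed KO level was 8664 TMM CPM and 5199 without the leading member of each library. The summed WT level was 3690, or 1453 without the leading members, 6407 without WT1 and 973 without WT2. Signs turned under RLE scaling for Mrc1 (log2 fold change -0.038) and Cd163 (-0.80), under DESeq2 for Cd163 (-0.70), and without both replicate 1 libraries for Selenop (-0.75). With 1 library left out, Lyve1 ranged from -0.41 to 6.50, Cd163 from -10.45 to 3.91 and Selenop from -0.63 to 19.25. A lone library of a genotype was assumed to vary like the others. The cause of these changes was not tested.

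With the replicate number as a replicate block, 0 genes were called and 7 had an unadjusted p under 0.05, and the log2 fold change turned to -2.87 for Lyve1, -3.12 for Mrc1, -9.14 for Cd163 and -3.28 for F13a1. The labels give shared numbers for 2 pairs and no shared mice or day, and the difference of libraries 1 and 2 correlated between genotypes at 0.18 over 7905 genes. With 2 pairs this does not settle whether the numbers pair the libraries, and they were not treated as paired. Of 102 alternative log2 fold changes of the members, 13 turned direction. The standard errors of the 9 members tested ran from 2.28 to 4.80 on the log2 scale.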
